A study of Mus musculus with 8 samples.

Results

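Annexins and S100 proteins were described here by 10 genes, the 7 annexins Anxa1, Anxa2, Anxa3, Anxa4, Anxa5, Anxa6 and Anxa7 and the 3 S100 genes S100a6, S100a10 and S100a11. They were taken by name from a table of 56748 genes counted by RNA sequencing, and all 10 passed the filter on low counts that left 14279 genes for testing. These genes and the gene lists below were chosen with earlier results of these data known. Shares over all genes, given beside counts of calls, are therefore a description and not a test. The cells were primary hepatocytes from C57BL/6J mice that carried loxP-flanked alleles of both Yap and Taz (Yap fl/fl;Taz fl/fl). Wild type (WT) stands for mice given the control virus AAV8-TBG-Null, and Yap/Taz knockout (KO) for mice given AAV8-TBG-Cre, so the WT cells also carried the flanked alleles and had also received a virus. The TBG promoter drives Cre in hepatocytes, and other liver cells were not targeted. The methods also describe crossing the line to a ROSA26-LSL-tdTomato reporter. By the paper's methods, the mice were 7 or 8 weeks old when the virus was given. Hepatocytes were isolated 10 days after the virus and cultured for 24 h on collagen-coated polyacrylamide hydrogels that were soft (1 kPa) or stiff (20 kPa), as models of healthy and diseased liver tissue. Each of the 4 groups had 2 libraries, and nothing in the labels said that they came from separate animals, so the p-values measure the spread between these libraries, which may be technical.

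Annexins are cytosolic proteins that bind acidic phospholipids in the presence of calcium, through a conserved core of repeats, and that act at membranes in secretion, endocytosis, membrane repair and the attachment of cortical actin. S100 proteins are small EF-hand proteins that form dimers, and several of them dock onto the N-terminal tail of an annexin. The best known pairs are annexin A2 with S100A10, which hold plasminogen and its activators at the cell surface, and annexin A1 with S100A11. YAP and TAZ, the proteins made from Yap1 and Wwtr1, are coactivators that enter the nucleus of cells on stiff substrates and bind DNA through TEAD factors, often near AP-1 factors. The question addressed was how the hydrogel's stiffness moved these genes in hepatocytes with and without Yap and Taz.

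Promoter sequences were read from a RefSeq table built on GRCm38.p6, which matched 7 of the 10 genes with 9 promoters and held none for Anxa3, Anxa6 or S100a10. The 250 bases before the start site are printed, 5′ to 3′ on the gene's strand, for Anxa2, S100a11 and S100a6, which were higher on stiff hydrogel in WT cells, and for Anxa1, the one member promoter with a TEAD motif. The promoter of Anxa5, also higher on stiff hydrogel in WT cells, is not printed. Capitals mark the TEAD motif GGAATG and the AP-1 motif TGANTCA, searched on both strands. The Anxa2 promoter lies at chr9:69453433-69453682 (plus strand), that of S100a11 at chr3:93520246-93520495 (plus strand), that of S100a6 at chr3:90612644-90612893 (plus strand) and that of Anxa1 at chr19:20390672-20390921 (minus strand).
Anxa2: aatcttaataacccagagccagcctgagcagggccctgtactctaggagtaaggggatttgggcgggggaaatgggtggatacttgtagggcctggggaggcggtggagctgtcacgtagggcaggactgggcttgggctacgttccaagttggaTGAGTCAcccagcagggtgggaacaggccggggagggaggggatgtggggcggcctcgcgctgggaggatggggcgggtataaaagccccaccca
S100a11: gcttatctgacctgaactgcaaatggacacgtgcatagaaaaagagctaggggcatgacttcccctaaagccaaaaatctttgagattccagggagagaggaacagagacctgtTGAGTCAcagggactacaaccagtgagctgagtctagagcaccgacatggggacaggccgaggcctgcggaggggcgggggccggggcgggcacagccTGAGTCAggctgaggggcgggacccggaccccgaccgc
S100a6: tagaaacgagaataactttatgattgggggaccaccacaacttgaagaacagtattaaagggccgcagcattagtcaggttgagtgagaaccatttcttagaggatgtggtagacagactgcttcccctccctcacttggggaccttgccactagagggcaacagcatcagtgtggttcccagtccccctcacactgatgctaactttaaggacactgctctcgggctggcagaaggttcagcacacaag
Anxa1: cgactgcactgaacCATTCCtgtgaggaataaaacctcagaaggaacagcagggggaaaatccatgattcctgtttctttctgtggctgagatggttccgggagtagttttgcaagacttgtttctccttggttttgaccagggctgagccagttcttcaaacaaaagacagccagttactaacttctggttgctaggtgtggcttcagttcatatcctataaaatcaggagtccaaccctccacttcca

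The AP-1 motif stood at bases -95 to -89 from the start in Anxa2, and at -136 to -130 and again at -38 to -32 in S100a11. These were 2 of the 9 member promoters, against 7.81% of all 32851 promoters of 300 bases in the table. The TEAD motif stood at -236 to -231 in Anxa1, with its complement on the printed strand, as 1 of 9 member promoters against 14.7% of all. S100a6, Anxa4, Anxa5 and Anxa7 held neither motif in this window. The GC box GGGCGG was found in promoters of Anxa2, Anxa4, Anxa7 and S100a11 and in 35.7% of all promoters, and the CArG box in Anxa5, after the start, and in 1.63% of all. The CRE motif TGACGTCA (1.79% of all) and the NF-kB motif GGGANTTCC (1.68% of all) were in none of the 9. None of the motifs searched overlaps another by its letters in these promoters, and a match describes letters, not binding.

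Libraries held 18324083 to 26442310 counts, and levels are given as CPM, counts relative to the library's total over tested genes as edgeR's cpm function returns them, with the TMM (trimmed mean) factor, 0.978 to 1.02, in that total. A gene without counts in a library could still have had up to 3 counts at 95% confidence, or 0.116 to 0.167 CPM, and this limit covers counting error only. Counts of Yap1 were lower in KO than in WT cells on soft and on stiff hydrogel (log2 fold changes of -1.68 and -2.20), as were those of Wwtr1 (-1.37 and -2.13), so reads of both genes remained in the KO libraries. The design text gives female mice, whereas the growth protocol and the paper's methods give male mice. Every library had 4818 to 8443 counts of Xist and 0 counts of Ddx3y, Kdm5d, Uty and Eif2s3y. All 7 hepatocyte markers were present in every library, with summed levels of 88230 to 92711 CPM in WT and 61277 to 61887 CPM in KO cells, most of it Alb. Members of this list did not move together, and those named here were chosen after their values were seen. On stiff hydrogel in WT cells, 2 of the 7 fell and none rose, beside 9.26% and 10.0% of all genes. They were Cyp2e1 (log2 fold change -1.75, adjusted p = 1.08e-14) and the transcription factor Hnf4a (-0.98, adjusted p = 2.44e-12). Both were higher in KO than in WT cells on stiff hydrogel (2.79, adjusted p = 7.11e-18, and 1.17, adjusted p = 7.52e-14). In that comparison 2 of the 7 were called higher and 2 lower, the lowest being Cps1 (-0.68), beside 13.7% and 15.0% of all genes. On soft hydrogel 1 was called higher in KO cells and 2 lower, beside 2.02% and 4.65% of all genes. The part of these differences in the results on the members was not tested. Summed stellate, endothelial and macrophage markers were highest in KO cells and lowest in WT cells on stiff hydrogel. The 8 stellate cell and fibroblast markers came to 32.5 to 32.7 CPM in WT soft, 21.5 to 23.5 in WT stiff, 46.9 to 47.1 in KO soft and 48.9 to 51.1 in KO stiff libraries, the stellate cell marker Lrat having at most 4 counts. The 6 endothelial markers came to 51.9 to 57.1, 37.9 to 38.1, 66.2 to 69.0 and 68.1 to 71.1 CPM, and the 6 macrophage markers to 75.5 to 78.6, 52.6 to 59.3, 104 to 106 and 107 to 109 CPM, in the same order of groups. The 6 cholangiocyte markers came to 548 to 602 CPM in WT and 320.4 to 348 CPM in KO cells, nearly all of it Spp1, with Cftr at 0 in every library and Krt7 at 3 counts or fewer. Its member Krt19, named after its values were seen, had 47 and 44 counts in WT soft, 436 and 396 in WT stiff and 11 to 17 in KO libraries. On stiff hydrogel in WT cells, 1 of 7 tested stellate markers was called higher and 3 lower, 0 and 2 of 6 endothelial, 0 and 3 of 6 macrophage, and 1 (Krt19) and 0 of 4 cholangiocyte markers, beside 10.0% and 9.26% of all genes. Mesothelial markers stood at 0.333 CPM or less and neutrophil markers at 0.515 CPM or less. The part of these cells in the results was not tested, and in bulk samples fewer cells of a type and less RNA per cell cannot be told apart.

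In WT cells, 6 of the 10 genes rose on stiff hydrogel and none fell (called at a Benjamini-Hochberg adjusted p under 0.05 in edgeR's quasi-likelihood test and an absolute log2 fold change over 0.5). They were the annexins Anxa2, Anxa3, Anxa5 and Anxa6 and the S100 genes S100a6 and S100a11. Anxa3 and S100a6 moved most, by 5.16-fold and 3.77-fold. Across the 14279 genes, 10.0% passed as higher and 9.26% as lower. The median log2 fold change of the 10 genes was 0.56, beside -0.0087 over all genes, whose median absolute change was 0.27.

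In KO cells, none of the 10 genes was called between stiff and soft hydrogel, and their log2 fold changes ran from -0.11 in Anxa3 to 0.05 in Anxa1. Few genes were called at all here, 0.0140% higher and 0.00700% lower. Before adjustment, edgeR's p was under 0.05 for Anxa3 alone (adjusted p = 0.634), and DESeq2 called 0 of the 10 as well. The standard errors were 0.033 to 0.049 for 9 of the genes and 0.35 for Anxa1, so a change of Anxa1 of the size seen in WT cells was not detectable at its depth. The median log2 fold change was 0.014, beside 0.0076 over all genes.

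The difference between these stiffness effects, tested as the interaction of stiffness and genotype, was called for 6 of the 10 genes. All 6 had a lower effect of stiffness in KO cells, and they were the same genes that rose in WT cells. Over all genes, 8.21% were called in this direction and 8.64% in the other. Since both tests use the same WT libraries, the overlap of their calls is not independent evidence.

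**Figure D1:**
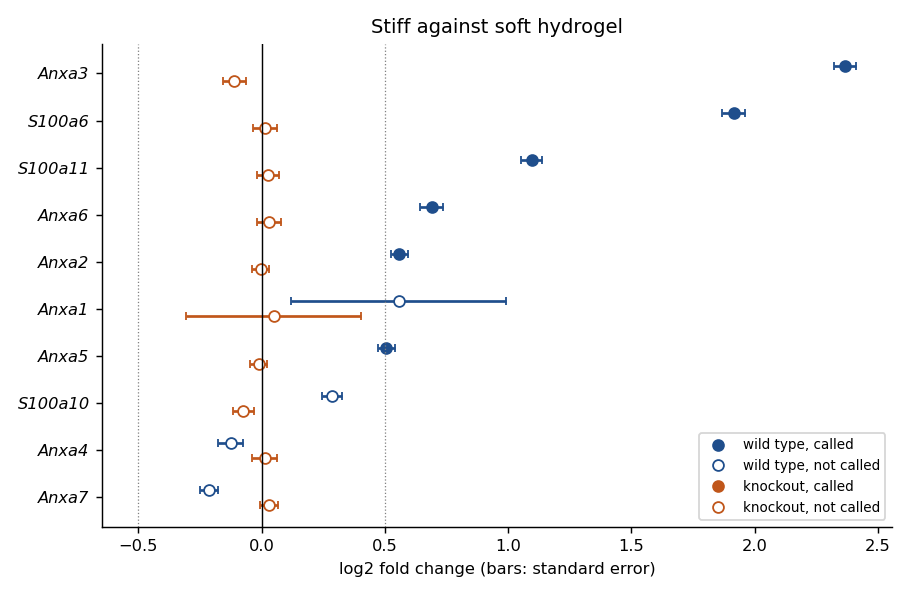
Log2 fold change on stiff against soft hydrogel for each of the 10 genes in WT (blue) and KO (orange) cells, with bars for the standard error of the edgeR fit and dotted lines at the 0.5 threshold. Filled points passed both thresholds: 6 genes in WT cells and none in KO cells, whose points lie between -0.11 and 0.05.

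Between genotypes, 2 of the 10 genes were called on soft and 7 on stiff hydrogel. On soft hydrogel, Anxa1 was called higher and Anxa3 lower in KO cells, beside 2.02% of all genes called higher and 4.65% lower. On stiff hydrogel, 7 of the 10 were called lower in KO cells and none higher, beside 15.0% of all genes called lower and 13.7% higher. The 7 were Anxa2, Anxa3, Anxa5, Anxa6, S100a6, S100a10 and S100a11, all 3 S100 genes among them. The median log2 fold change of the 10 genes was -0.097 on soft and -0.59 on stiff hydrogel, beside -0.00031 and 0.011 over all genes. The comparison on stiff hydrogel shares its WT libraries with that of stiffness in WT cells.

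**Figure D2:**
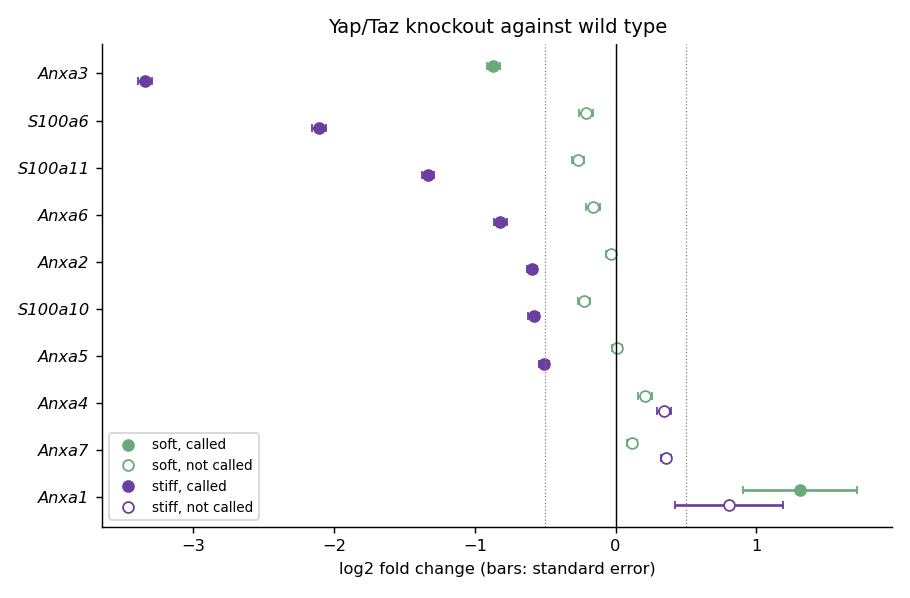
Log2 fold change of KO against WT cells on soft (green) and stiff (purple) hydrogel for the 10 genes, with bars for the standard error and dotted lines at the 0.5 threshold. On stiff hydrogel 7 filled points lie left of -0.5, from -3.34 in Anxa3 to -0.51 in Anxa5, while on soft hydrogel the filled points are Anxa3 (-0.87) and Anxa1 (1.31).

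The 10 genes differed widely in level. Per kilobase of the deposited gene length, the mean over 8 libraries was highest for S100a11 (669 CPM per kb), followed by S100a10 (490.2), Anxa5 (478), Anxa2 (226), S100a6 (152), Anxa7 (67.9), Anxa3 (61.3), Anxa6 (59.4), Anxa4 (31.9) and Anxa1 (0.599). The order changed between groups. Anxa3 stood 8th in WT soft, 6th in WT stiff and 9th in both KO groups, and S100a6 passed Anxa2 in WT stiff only (352 ± 3.93 against 301 ± 5.40 CPM per kb, SD, n = 2). By the deposited lengths, S100a10 and Anxa5 could not be ordered in WT stiff or in KO soft, where their libraries overlapped. Each other pair of neighbours was apart in both libraries. Several deposited lengths exceed the longest transcript of the reference annotation. With that transcript as the length, S100a10 (867 CPM per kb) came before S100a11 (669), the other 8 places in the mean over 8 libraries being the same. Anxa5 then stood at 490.5 CPM per kb, apart from S100a10, and the order within each group was not taken with that length. That length was chosen after the data were seen. The place of Anxa3 rests on which libraries are averaged: it came 8th, after Anxa6, without either WT stiff library, and 6th, before Anxa7, without any one KO library.

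**Figure D3:**
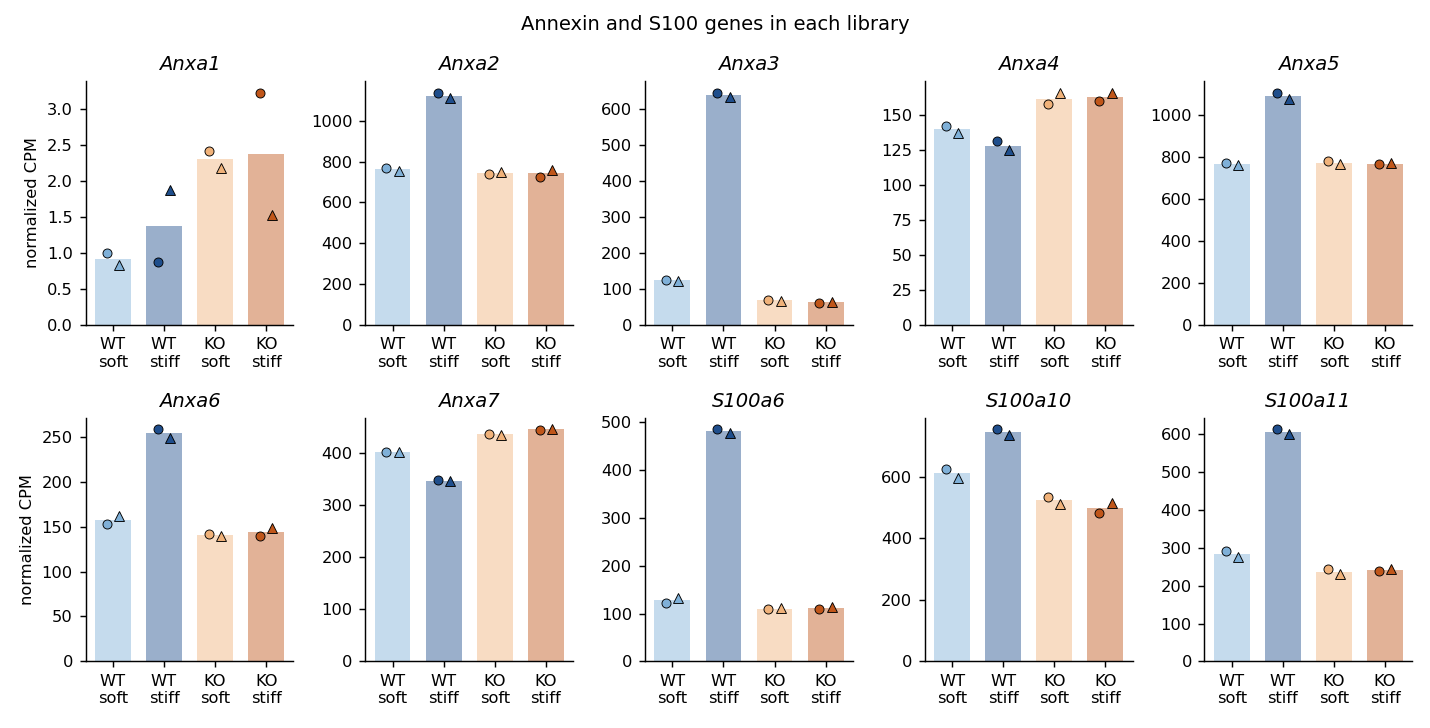
Normalized CPM of the 10 genes in each library, with bars for the mean of the 2 libraries of a group, circles for replicate 1 and triangles for replicate 2, each panel on its own linear axis from 0. The WT stiff bar is the highest for Anxa2, Anxa3, Anxa5, Anxa6, S100a6, S100a10 and S100a11 and the lowest for Anxa4 and Anxa7. The share of all genes with such an order was not taken.

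Annexin A2 and S100A10 form a tetramer under the plasma membrane. Anxa2 (ENSMUSG00000032231, chromosome 9 from 69360902 to 69399077 in the deposited table) was counted at 770.2 and 755 CPM in WT soft, 1139 and 1110.0 in WT stiff, 741 and 749 in KO soft, and 726 and 761 in KO stiff libraries. Both WT stiff libraries were above the other 6, which lay within 726 to 770.2 CPM. Anxa2 rose 1.47-fold on stiff hydrogel in WT cells (log2 fold change 0.56, SE 0.035, adjusted p = 3.34e-10) and differed by a log2 fold change of -0.0026 in KO cells (adjusted p = 0.992). It fell in KO against WT cells on stiff hydrogel (-0.60, adjusted p = 7.10e-11), and on soft hydrogel gave -0.03 (adjusted p = 0.567).

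S100a10 (ENSMUSG00000041959, chromosome 3 from 93462387 to 93471950), which has lost calcium binding and stays in the form that holds annexin A2, was counted at 625 and 596 CPM in WT soft, 753 and 736 in WT stiff, 535 and 512 in KO soft, and 481 and 514 in KO stiff libraries. The WT stiff libraries were highest, and each WT library was above every KO library. Stiff against soft hydrogel in WT cells gave a log2 fold change of 0.29 (SE 0.041, adjusted p = 1.94e-05), which is under the fold threshold. KO against WT cells gave -0.58 on stiff (SE 0.041, adjusted p = 1.18e-09), a fall, and -0.22 on soft hydrogel (adjusted p = 0.000701), under the fold threshold. Its interaction of -0.36 (adjusted p = 1.26e-04) was also under the fold threshold.

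Per kilobase, there were 2.43 to 2.50 times as many S100a10 as Anxa2 reads in WT soft, 2.04 in both WT stiff, 2.10 to 2.22 in KO soft and 2.04 to 2.08 in KO stiff libraries. The ratio was therefore highest in WT cells on soft hydrogel, and the 3 other groups lay within 2.04 to 2.22. Over the 8 libraries, log2 CPM of both genes had a Pearson r of 0.898, and Anxa2 with S100a6 one of 0.996. These points share libraries and groups, and are given as a description. Among 10037 genes with at least 100 counts on average, the pattern of Anxa2 was most like those of Mfn2 (r = 0.999), Macf1 (0.999) and Stip1 (0.997). That of S100a10 was most like those of Plscr2 (0.997), Hspa8 (0.996) and Idi1 (0.996).

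S100A11 binds the N-terminal tail of annexin A1. S100a11 (ENSMUSG00000027907, chromosome 3 from 93427795 to 93433594) was counted at 292 and 275 CPM in WT soft, 613 and 601 in WT stiff, 243 and 229.7 in KO soft, and 238 and 243 in KO stiff libraries. Both WT stiff libraries were above 600 CPM and no other library reached 300 CPM. The gene rose 2.14-fold on stiff hydrogel in WT cells (log2 fold change 1.10, SE 0.043, adjusted p = 5.93e-13), against 0.027 in KO cells (adjusted p = 0.912). It fell 2.52-fold in KO against WT cells on stiff hydrogel (-1.33, adjusted p = 1.69e-14), and gave -0.26 on soft hydrogel (adjusted p = 2.16e-04), under the fold threshold.

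S100a11 shared 39.3% of the 64-base windows of its longest transcript with other genes of the reference annotation, mainly Gm12854, so its counts are uncertain as far as the authors' counting split such reads. Gm12854 had 146 to 239 counts in WT soft and KO libraries and 500 and 425 in WT stiff libraries. With both genes' counts summed, a choice made after the data were seen, the log2 fold change on stiff hydrogel was 1.11 in WT and 0.028 in KO cells, and every call of S100a11 was kept. Of the other members, Anxa2 shared 1.62% of its windows, Anxa4 0.977% and the remaining 7 none.

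Anxa1 (ENSMUSG00000024659, chromosome 19 from 20350792 to 20368308), a mediator of glucocorticoid action that signals through formyl peptide receptors, was the lowest member, with 15 to 69 counts a library. Its levels were 1.00 and 0.833 CPM in WT soft, 0.868 and 1.88 in WT stiff, 2.42 and 2.19 in KO soft, and 3.23 and 1.53 in KO stiff libraries. The KO soft libraries lay above the WT soft ones, whereas the genotypes overlapped on stiff hydrogel, where replicates differed 2.17-fold in WT and 2.11-fold in KO cells. Anxa1 was higher in KO than in WT cells on soft hydrogel (log2 fold change 1.31, SE 0.40, edgeR adjusted p = 0.0290). That call was lost with DESeq2 (adjusted p = 0.0769) and without any one of the 4 libraries compared (adjusted p from 0.0738 to 0.143). In the same comparison 4 of 7 tested stellate, 1 of 6 endothelial and 2 of 6 macrophage markers were called higher in KO cells. None of these was called lower, whereas 2 of 4 tested cholangiocyte markers were lower and none higher. Among the 14279 genes tested, the shares were 2.02% higher and 4.65% lower. The part of these cells in the Anxa1 difference was not tested. On stiff hydrogel, KO against WT cells gave 0.81 (adjusted p = 0.0915), which was called without WT stiff replicate 2 (1.45, adjusted p = 0.0247), without KO stiff replicate 2 (1.23, adjusted p = 0.0136) and with no filter on low counts (0.79, adjusted p = 0.0325). Stiff against soft hydrogel gave 0.56 in WT cells (adjusted p = 0.339), and -0.093 without WT stiff replicate 2.

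S100A6, or calcyclin, is a calcium sensor of growing cells that binds several annexins and the calcyclin-binding protein Cacybp. S100a6 (ENSMUSG00000001025, chromosome 3 from 90520189 to 90531488) was counted at 123 and 133 CPM in WT soft, 485 and 478 in WT stiff, 110.1 and 111 in KO soft, and 110.1 and 113 in KO stiff libraries. Both WT stiff libraries stood far above the other 6, and the 4 KO libraries lay within 110.1 to 113 CPM. The log2 fold change on stiff hydrogel was 1.91 in WT cells (SE 0.047, adjusted p = 1.16e-15) and 0.015 in KO cells (adjusted p = 0.963). S100a6 fell 4.31-fold in KO against WT cells on stiff hydrogel (-2.11, adjusted p = 1.17e-16), and gave -0.21 on soft hydrogel (adjusted p = 0.00450), under the fold threshold. There was 0.571 to 0.575 times as much S100a6 as S100a10 per kilobase in WT stiff libraries, and 0.174 to 0.203 times as much in the other 6.

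Anxa3, an annexin with a short N-terminal tail, had the largest change of the 10 genes. The gene (ENSMUSG00000029484, chromosome 5 from 96941198 to 96993825) was counted at 126 and 122 CPM in WT soft, 645 and 633 in WT stiff, 68.7 and 67.0 in KO soft, and 61.7 and 64.1 in KO stiff libraries. The 4 KO libraries were below the WT soft libraries, which were far below the WT stiff ones. On stiff hydrogel it rose in WT cells by a log2 fold change of 2.37 (SE 0.045, adjusted p = 3.42e-17), the 105th highest of 14279 genes. KO against WT cells gave -3.34 on stiff (10.2-fold lower, adjusted p = 1.77e-19) and -0.87 on soft hydrogel (1.82-fold lower, SE 0.046, adjusted p = 1.53e-10). Anxa3 made up 13.8 to 13.9% of the summed annexin level per kilobase in WT stiff, 4.10 to 4.18% in WT soft and 2.12 to 2.32% in KO libraries.

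Annexin A5 binds phosphatidylserine and is used to stain apoptotic cells. Anxa5 (ENSMUSG00000027712, chromosome 3 from 36503072 to 36530043) was counted at 771 and 763 CPM in WT soft, 1106 and 1074 in WT stiff, 779 and 766 in KO soft, and 764 and 769 in KO stiff libraries. Like Anxa2, it was high in both WT stiff libraries and within a narrow range, 763 to 779 CPM, in the other 6. The log2 fold change in WT cells was 0.51 (SE 0.033, adjusted p = 6.43e-10) and that of KO against WT cells on stiff hydrogel -0.51 (adjusted p = 3.32e-10). Both lay just past the fold threshold of 0.5 and fell under it without WT stiff replicate 1 (0.49 and -0.499) and with upper quartile scaling (0.498 and -0.49). With library size alone the latter was -0.45.

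Annexin A6, which holds a doubled core and acts on late endosomes and their cholesterol, gave a middle-sized change. Anxa6 (ENSMUSG00000018340, chromosome 11 from 54869934 to 54924271) was counted at 153 and 162 CPM in WT soft, 258 and 249 in WT stiff, 142 and 139 in KO soft, and 139.7 and 148 in KO stiff libraries. WT stiff libraries were highest, and KO libraries were below WT soft libraries by less than the step to WT stiff. The log2 fold change on stiff hydrogel was 0.69 in WT (SE 0.048, adjusted p = 1.68e-09) and 0.031 in KO cells (adjusted p = 0.906). Between KO and WT cells it gave -0.82 on stiff (adjusted p = 8.49e-11) and, under the fold threshold, -0.16 on soft hydrogel (adjusted p = 0.0285).

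Anxa4 and Anxa7 were not called in any comparison. Annexin A4 is an annexin of secretory epithelia, and annexin A7, or synexin, promotes the fusion of membranes in the presence of calcium. Anxa7 (ENSMUSG00000021814, chromosome 14 from 20505328 to 20530201) was counted at 402 and 401 CPM in WT soft, 347 and 346 in WT stiff, 436 and 434 in KO soft, and 444 and 445 in KO stiff libraries. The WT stiff libraries were lowest and the KO libraries highest, with no overlap between any 2 groups. Stiff against soft hydrogel gave a log2 fold change of -0.21 in WT cells (SE 0.036, adjusted p = 1.18e-04), and KO against WT cells gave 0.36 on stiff (adjusted p = 1.52e-07) and 0.12 on soft hydrogel (adjusted p = 0.0338). The interaction was 0.24 (adjusted p = 0.00137), and all of these were under the fold threshold.

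Anxa4 (ENSMUSG00000029994, chromosome 6 from 86713822 to 86770566) was counted at 142 and 137 CPM in WT soft, 132 and 125 in WT stiff, 158 and 166 in KO soft, and 160.4 and 166 in KO stiff libraries. Each KO library was above each WT library. Stiff against soft hydrogel gave a log2 fold change of -0.12 in WT cells (SE 0.050, adjusted p = 0.0561), and KO against WT cells gave 0.35 on stiff (adjusted p = 1.26e-05) and 0.21 on soft hydrogel (adjusted p = 0.00529), both under the fold threshold. Per kilobase, the ratio of Anxa3 to Anxa4 was 1.13 in both WT soft, 6.24 to 6.47 in WT stiff, 0.514 to 0.555 in KO soft and 0.490 to 0.492 in KO stiff libraries.

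**Figure D4:**
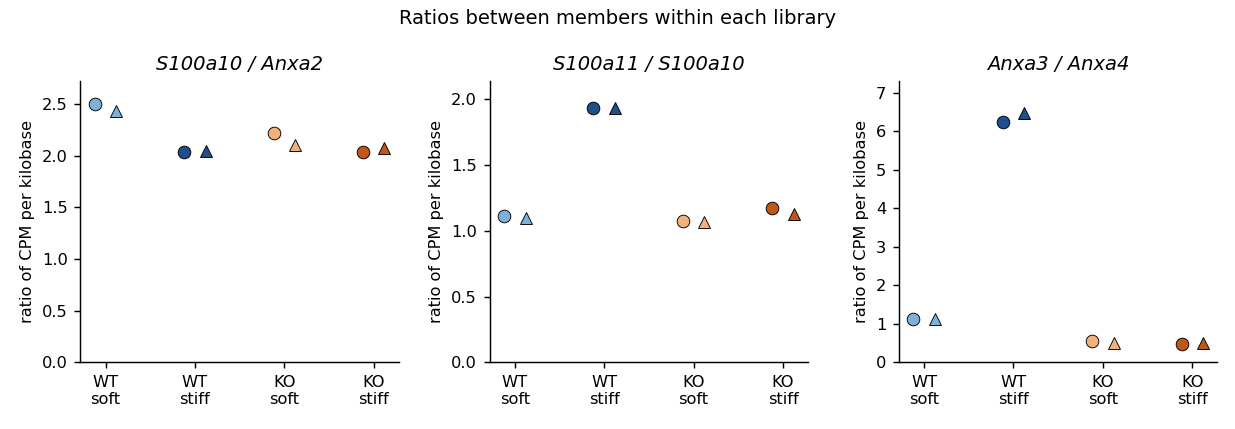
Ratios of CPM per kilobase between members in each library (circles replicate 1, triangles replicate 2, linear axes from 0). S100a11 to S100a10 was 1.93 to 1.94 in WT stiff and 1.06 to 1.18 in the other libraries. Anxa3 to Anxa4 was 6.24 to 6.47 in WT stiff and 0.490 to 1.13 in the others, and S100a10 to Anxa2 was highest in WT soft. With the longest reference transcripts in place of the deposited gene lengths, S100a11 to S100a10 is 1.09 in WT stiff and 0.602 to 0.665 in the other libraries. Anxa3 to Anxa4 is then 8.05 to 8.34 in WT stiff and 0.633 to 1.46 in the others. S100a10 to Anxa2 is then 2.63 to 2.70 in WT soft and 2.20 to 2.40 in the others.

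Summed over the 10 genes, levels were 3346 to 3406 CPM in WT soft, 5353 to 5478 in WT stiff, 3175 to 3216 in KO soft and 3129 to 3226 in KO stiff libraries. The WT stiff libraries were above all others, and the KO libraries below the WT soft ones. The S100 genes made up 58.0 to 58.8% of the sum per kilobase in WT soft, 63.0 to 63.1% in WT stiff and 54.2 to 55.1% in KO libraries.

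The other genes of both families that passed the filter had means of 92.6 (Anxa9), 1204 (Anxa11), 1041 (S100a1), 512 (S100a13), 1521 (S100a16), and fewer in S100a3 and S100g, in counts a library. Of 5 other annexins, Anxa9 and Anxa11 passed the filter and neither was called in any comparison, with log2 fold changes on stiff hydrogel in WT cells of 0.30 (adjusted p = 0.238) and -0.20 (adjusted p = 0.0275). Anxa10 had 0 counts in every library, and Anxa8 and Anxa13 had 5 counts or fewer. Of 13 other S100 genes, 5 were tested and 2 were called on stiff hydrogel in WT cells, 1 higher and 1 lower (10.0% and 9.26% of all genes). S100a3 had 20 and 21 counts in WT soft, 94 and 115 in WT stiff and 6 to 9 in KO libraries, and rose by a log2 fold change of 2.45 (SE 0.32, adjusted p = 5.55e-06). S100g, the intestinal calcium-binding protein calbindin D9k, had 67 and 43 counts in WT soft, 5 and 7 in WT stiff and 80 to 161 in KO libraries, and fell by 3.05 on the log2 scale (SE 0.38, adjusted p = 3.92e-06). On stiff hydrogel in KO cells, S100a3 gave 0.32 (adjusted p = 0.918) and S100g -0.30 (adjusted p = 0.767). The KO to WT comparison gave -1.60 on soft and -3.73 on stiff hydrogel for S100a3, and 1.07 and 3.82 for S100g, all of them called. Interactions were called for S100a3 (-2.13) and S100g (2.75), the lowest and highest of this list. Of the 5 tested, 1 was called higher and 1 lower in each KO to WT comparison and in the interaction. Over all genes, the shares higher and lower were 2.02% and 4.65% on soft and 13.7% and 15.0% on stiff hydrogel. For the interaction they were 8.64% and 8.21%. S100a8 and S100a9, which mark neutrophils, had at most 7 counts.

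Proteins that bind or work beside the members were counted as a list of 12 genes, of which 10 were tested. In WT cells on stiff hydrogel 3 were called higher and none lower, beside 10.0% and 9.26% of all genes. Ahnak, a giant scaffold protein that the annexin A2 and S100A10 complex anchors, rose most (log2 fold change 1.47, SE 0.046, adjusted p = 2.64e-14). The urokinase receptor Plaur rose by 1.36 (adjusted p = 1.90e-11), and urokinase itself, Plau, with 24 to 70 counts a library, by 0.82 (adjusted p = 0.0446). Plasminogen, Plg, was the lowest of the list with -0.18 (adjusted p = 5.38e-04). The list's median was 0.34 (-0.0087 over all genes), and in KO cells on stiff hydrogel none of the 10 was called, with values from -0.35 (Plau) to 0.10 (Dlc1) and a median of -0.088.

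In KO against WT cells, 2 of these 10 genes were lower on soft hydrogel, the most Ahnak with -0.94 (adjusted p = 9.17e-11), and 5 on stiff hydrogel, the most Ahnak with -2.38 (adjusted p = 2.21e-17), beside 4.65% and 15.0% of all genes. None was higher, Plau (0.37, adjusted p = 0.484) and Hltf (-0.05, adjusted p = 0.728) being at the upper ends. The interaction was called lower for 2 genes (8.21% of all genes), Ahnak at -1.44 (adjusted p = 1.73e-11) and Plaur at -1.48 (adjusted p = 5.25e-09), with Plg at the other end (0.21, adjusted p = 0.00385). The formyl peptide receptors Fpr1 and Fpr2, through which annexin A1 signals, had 11 counts or fewer and were not tested. Cacybp gave 0.15 in WT cells on stiff hydrogel (adjusted p = 0.0403), under the fold threshold.

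Genes of plasma membrane repair, where annexins cap the wound beside dysferlin and the ESCRT machinery, were counted as a list of 15, of which 14 were tested. On stiff hydrogel in WT cells 6 were called higher and none lower, beside 10.0% and 9.26% of all genes, with a median of 0.28 (-0.0087 over all genes). Myof, a ferlin of membrane fusion, was the highest (2.55, SE 0.089, adjusted p = 1.22e-13) and Vps4b, an ATPase that recycles ESCRT proteins, the lowest (-0.05, adjusted p = 0.499). Of the list's other genes, chosen for naming after their values were seen, Dysf rose by 1.58 (adjusted p = 1.02e-07) and Ehd2, an ATPase at the neck of caveolae, by 0.84 (adjusted p = 4.54e-07). In KO cells on stiff hydrogel none was called, with values from -0.24 (Cav1, with 1 to 40 counts a library) to 0.20 (Dysf). Between genotypes, 2 genes (4.65% of all genes) were lower in KO cells on soft, with Myof at -1.07 (adjusted p = 8.02e-07) and Cav1 at 0.12 (adjusted p = 0.944), and 6 (15.0% of all genes) lower on stiff hydrogel, with Myof at -3.66 (adjusted p = 1.26e-15) and Capns1 at 0.18 (adjusted p = 9.73e-04). The interaction was called lower for 5 (8.21% of all genes), from -2.59 in Myof (adjusted p = 3.90e-10), with Capns1 highest at 0.07 (adjusted p = 0.396).

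**Figure D5:**
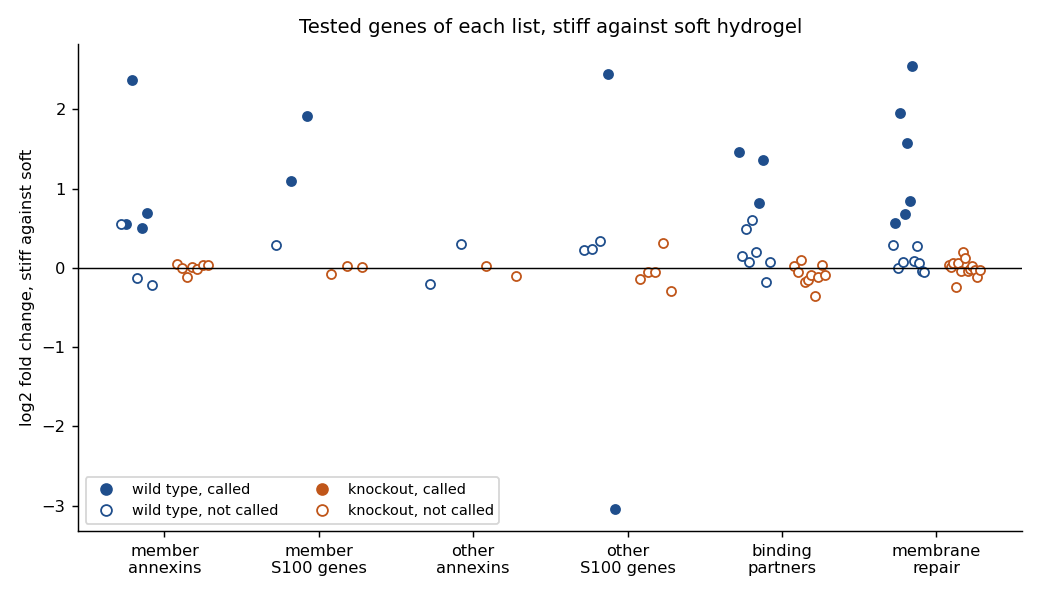
Log2 fold change on stiff against soft hydrogel of each tested gene of the members and of 4 related lists, in WT (blue) and KO (orange) cells, filled where called. Filled points are all from WT cells: 4 annexins, 2 S100 members, 0 other annexins, 2 other S100 genes (S100a3 at 2.45 and S100g at -3.05), 3 partners and 6 membrane repair genes.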

How the data were processed

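RNA was sequenced from 8 libraries of mouse primary hepatocytes. Per the paper's methods, HISAT2 2.0.5 was the authors' aligner for the paired-end reads and featureCounts their counter, and raw counts were deposited without normalization, beside gene lengths and positions. Rules for reads matching several genes, and the use of strand, were not given in the sources used here. The submitters' processing notes name mm9, DESeq2 1.20.0, edgeR 3.22.5 and GATK 4.1.4.1. Of 21202 protein-coding genes, 3382 deposited positions (16.0%) overlapped those of GRCm38, 1 of them a member, so the build of the positions was not settled and they are printed as deposited. Antisense genes overlapping Anxa1, Anxa2 and Anxa4 had means of at most 9.75 counts.

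Counts were filtered with filterByExpr by group, scaled by TMM and fitted in R 4.3.3 with edgeR 4.0.16 (glmQLFit, glmQLFTest, a term per group, all 8 libraries, 4 residual degrees of freedom, common biological coefficient of variation 0.0542). Adjusted p-values cover all 14279 genes tested. The alternatives covered DESeq2 1.42.0, the scaling, filters, fold threshold, robust empirical Bayes, a replicate term, the libraries fitted and each library left out. Figures used matplotlib 3.10.9. Replicates differed by more than sampling noise (chi-square per degree of freedom 2.62 to 5.45). On simulated data with 200 genes changed by a log2 fold change of 1, edgeR recovered 73.5% between the WT groups (13968 genes, 11 others called) and 76% between the KO groups (14002 genes, 8 others called).

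Members and gene lists were chosen with earlier results of these data known, and 1 gene of the partner list is not reported here. Genes named are the members, the extremes of each list per comparison, and the 3 genes most like Anxa2 and S100a10 by Pearson r of log2 CPM (prior count 2). Other list genes and markers that the text names, such as Cacybp, Fpr1, Fpr2 and Ehd2, were picked with their values in view. Shared sequence counts 64-base windows of the longest GENCODE GRCm38 transcript. Motifs were searched on both strands of 300-base promoters.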

Additional observations from a re-analysis of the deposited data

Results flagged for a closer look

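The stiffness effect differed between genotypes, by edgeR's test of the interaction, for 6 of the 10 genes. The log2 fold change in KO cells minus that in WT cells was -2.48 for Anxa3 (SE 0.065, adjusted p = 1.22e-14), -1.90 for S100a6 (SE 0.067, adjusted p = 5.58e-13) and -1.07 for S100a11 (SE 0.061, adjusted p = 2.88e-10). It was smaller for Anxa6 (-0.66, adjusted p = 7.20e-07), Anxa2 (-0.56, adjusted p = 7.88e-08) and Anxa5 (-0.52, adjusted p = 1.13e-07). For these 6 genes the effect in KO cells was between -0.11 and 0.031. S100a11 carries the uncertainty of the sequence it shares with Gm12854.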

How the results depend on the processing

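Of the 10 genes' log2 fold changes, direction and side of the thresholds were kept in 177 of 180 alternative values for stiffness in WT cells, 171 of 180 in KO cells, 173 of 180 for KO against WT cells on soft and 174 of 180 on stiff hydrogel, and 169 of 170 for the interaction. With an absolute log2 fold change over 1, members called were 3 in WT cells on stiff hydrogel, 1 and 3 for KO against WT cells on soft and stiff hydrogel, and 3 for the interaction. For KO against WT cells on soft hydrogel, 8 members were called with no minimum fold, 1 with DESeq2, and 1 to 2 with a library left out. Leaving out a library moved the other counts of members called to 5 to 6 (WT stiffness), 6 to 8 (KO against WT on stiff hydrogel), 0 (KO stiffness) and 6 (interaction). Over all genes, no minimum fold and a threshold of 1 gave 5859 and 1244 calls for stiffness in WT cells (2754 as reported), 2624 and 353 for KO against WT cells on soft (952), 7299 and 2097 on stiff hydrogel (4103), and 4192 and 1040 for the interaction (2405). For stiffness in KO cells, where 3 genes were called, the count was 1 with a threshold of 1, 50 with no filter on low counts, 1 with robust empirical Bayes, 9 with only the 4 libraries compared, and 1 to 8 with a library left out, 1 without KO soft replicate 1 and 8 without KO stiff replicate 2. The cause of these differences was not tested beyond the thresholds and the genes or samples that each alternative removes.

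Directions turned where values lay near 0 or counts were low. With a library left out, the log2 fold change in KO cells ran from -0.594 to 0.475 for Anxa1, -0.045 to 0.028 for Anxa2, -0.031 to 0.045 for Anxa4 (-0.00015 with no filter), -0.020 to 0.071 for Anxa6, -0.014 to 0.033 for S100a6 and -0.018 to 0.064 for S100a11. For Anxa1, the effect in WT cells ran from -0.093 to 1.02 and the interaction from -1.15 to 0.14. KO against WT cells on soft hydrogel gave 0.021 for Anxa2 with library size alone and -0.0033 to 0.022 for Anxa5 with a library left out. Samples with the same replicate number did not deviate together (correlations from -0.101 to 0.042), and with a replicate block the members called stayed at 6, 0, 2, 7 and 6 in the 5 comparisons, with 2705 genes called for stiffness in WT cells. Mean counts were 37.8 for Anxa1 and at least 3190.5 for each other member, so depth limited Anxa1 most.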
